A study of Homo sapiens with 8 samples.

Results

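Transcripts of the zinc finger gene family were examined in the deposited table of m6A peaks that the authors listed as different between METTL3-silenced and control ARPE-19 cells. A gene ID of the table, leaving out the most recent Ensembl numbers, was a member when the protein-coding RefSeq gene holding its peaks on the same strand had a symbol starting with ZNF and a digit, or with ZBTB, ZSCAN, ZKSCAN or ZFP. This rule gave 29 of the 1103 gene IDs, with 32 of the 1262 listed peaks. ARPE-19 is a human retinal pigment epithelium (RPE) line. Here it carried a lentiviral silencing construct against METTL3 (shMET+LPS) or a negative control (shNC+LPS). All cells had received 1 µg/ml lipopolysaccharide (LPS) for 24 h. Each group had 3 m6A IP libraries, in which an anti-m6A antibody pulls down fragments of mRNA. Each also had 1 input library, made from the fragments without this pull-down step. The table holds 1 value per peak over libraries combined by the authors, so no value of a single library, no depth and no spread between replicates can be given. The direction of the difference between the groups is not given here, and nothing below says whether a peak was higher or lower after silencing. Expression is not in the table either, so the RPE identity of the cells was not checked on markers.

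C2H2 zinc finger proteins are the most numerous class of human transcription factors and bind DNA through arrays of short modules that each hold a zinc ion. Many also carry an effector domain: KRAB domains recruit the corepressor TRIM28, BTB domains pair proteins and bind corepressors, and SCAN domains join members to each other. The fingers are usually encoded together in a long last coding exon, and METTL3 is known to place m6A mostly in long internal exons, around stop codons and in 3' untranslated regions.

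The zinc finger peaks were strongly enriched over input. Fold enrichment is the ratio of m6A IP to input reads in a peak as the authors gave it, and the table does not state whether it is over the control cells, the silenced cells or both. Its median was 25 over the 32 zinc finger peaks (quartiles 8.56 and 35.5, from 4.05 to 145) and 8.33 over the other 1230 listed peaks (lower quartile 3.86, largest value 462). When all 1262 peaks were ranked by fold enrichment and divided into 5 groups of equal size, 15 zinc finger peaks (46.9%) were in the most enriched group and 0 were in the least enriched. A fold enrichment of at least 10 was reached by 21 zinc finger peaks (65.6%), against 45.1% of the other peaks. Below 4, a limit just under the smallest zinc finger value of 4.05, were 26.3% of the others and no zinc finger peak. Without chromosome 19, a setting chosen after the values were seen, the medians were closer, at 9.81 for zinc finger peaks and 8.63 for the others. These are descriptions of the list: peaks are not replicates, and the difference between the medians was not tested.

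**Figure D1:**
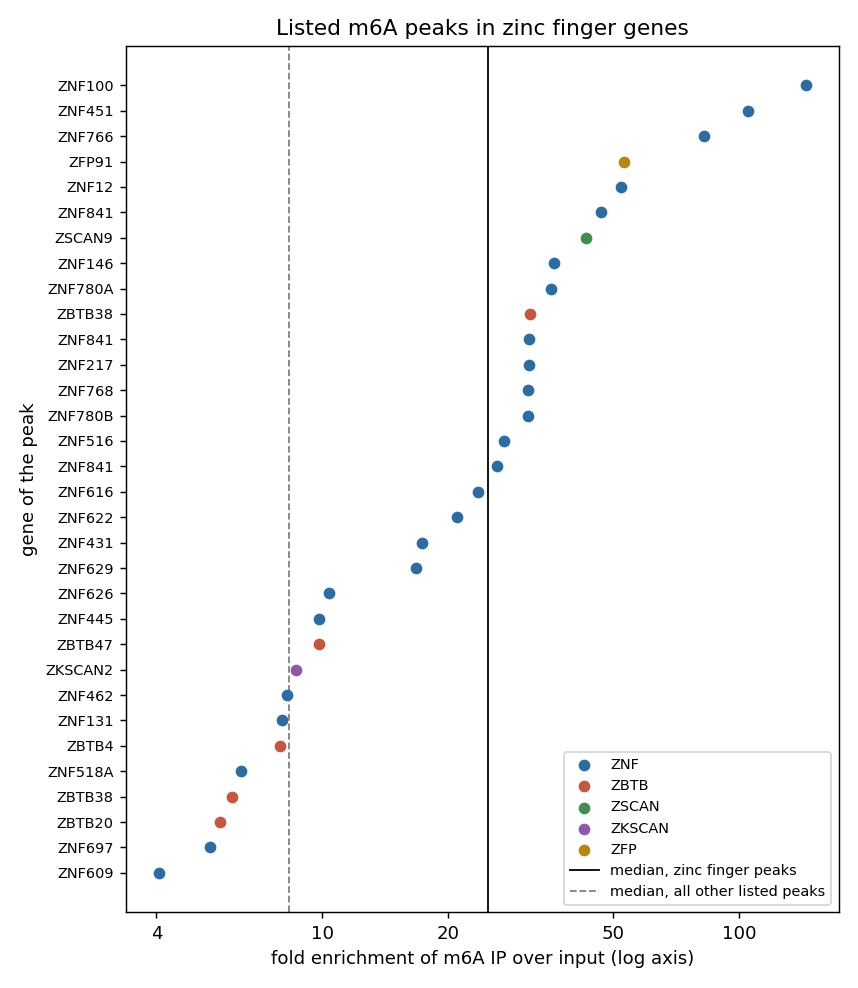
Fold enrichment of m6A IP over input (log axis) for each of the 32 listed peaks in zinc finger genes, coloured by symbol prefix, with the medians of the zinc finger peaks (25, solid line) and of all other listed peaks (8.33, dashed line). ZNF100 is the most enriched at 145, and 4 of the 5 ZBTB peaks are below 10.

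The share of the family with a listed peak was close to that of all genes. The 29 members, chosen with a limit on the ID number, are 4.75% of the 611 protein-coding RefSeq genes with such symbols (95% Wilson interval 3.32% to 6.73%, counting error only). With no such limit, 30 of the 611 (4.91%) and 925 of all 20052 protein-coding genes (4.61%) were assigned a listed peak. By prefix, the members were 22 of 517 for ZNF, 4 of 42 for ZBTB, 1 of 21 for ZSCAN, 1 of 7 for ZKSCAN and 1 of 24 for ZFP.

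Of the 5 genes with the most enriched peaks, 3 encode KRAB zinc finger proteins, a class of repressors of which many silence transposable elements. Members with a KRAB domain were not counted over the whole family, so this number is no comparison with other classes. ZNF100 (ENSG00000197020) had the largest fold enrichment of the family, 145, in a block of 989 nt on the minus strand of chromosome 19 from 21726116 to 21727104. This placed it at percentile 99.2 of all listed peaks. ZNF766 followed among the KRAB genes with 82.5, over 1468 nt on the plus strand of chromosome 19 from 52290089 to 52291556. ZNF12, on chromosome 7, had 52.0 over 989 nt. Each of these 3 peaks was a single unbroken block, and their middles lay at 91.4%, 80.3% and 87.6% of the gene span from its start.

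ZNF841 was the member with the most peaks, 3, all on the minus strand of chromosome 19. Their fold enrichments were 46.7, 31.4 and 26.3. The first was a single block of 508 nt, and the second shares 495 bases with it: its larger block has 537 nt, and its other block of 33 nt lies 8433 bases away. The last, of 924 nt, ended 118 bases from the first. These 3 values therefore describe adjoining or shared stretches of 1 transcript and are not independent.

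ZNF780A and ZNF780B are closely related neighbours, and their peaks lay 37995 bases apart on the minus strand of chromosome 19. Their fold enrichments were 35.4 and 31.1, over single blocks of 930 and 1288 nt. The middles of these peaks were at 77.7% and 76.2% of the gene span. Fragments that match both copies could have been assigned to either, and how they were counted is not given in the sources used here. The near-equal values are therefore uncertain as separate measurements.

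Chromosome 19, which carries the large tandem clusters of KRAB zinc finger genes, held 9 of the 29 members and 11 of the 32 peaks. Its zinc finger peaks had a median fold enrichment of 31.4, and none was below 10.4. The doubt about fragments that match several copies applies to these clustered relatives too, ZNF100 included. The 103 other listed peaks on the same chromosome had a median of 4.98 (quartiles 3.24 and 10.2), below the 8.63 of the other listed peaks elsewhere (quartiles 3.97 and 20.6). The 21 zinc finger peaks on other chromosomes had a median of 9.81 (quartiles 7.94 and 31.3), close to that 8.63. Without chromosome 19, the medians of the family and of the rest of the list were therefore similar, while both quartiles of the family were higher. In number, the members were 9 of the 265 zinc finger genes on chromosome 19 (3.4%, interval 1.8% to 6.33%; 10 with no limit on the ID) and 20 of the 346 elsewhere (5.78%, interval 3.77% to 8.76%).

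**Figure D2:**
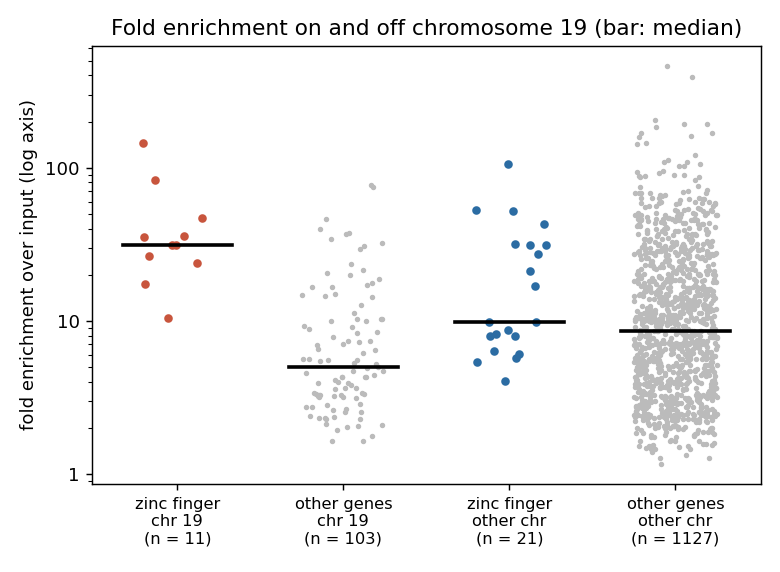
Fold enrichment over input (log axis) of the listed peaks, divided into zinc finger and other genes on chromosome 19 and on all other chromosomes; each point is a peak, points are spread sideways for legibility, and bars are medians. The medians are 31.4 and 4.98 on chromosome 19 and 9.81 and 8.63 elsewhere.

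Width was counted over the blocks alone, without the introns between them, and its median was 554.5 nt for the zinc finger peaks (from 211 to 2548 nt) and 418.5 nt for the others (from 116 to 5574 nt). A width over 600 nt was seen in 15 zinc finger peaks (46.9%) and in 25.9% of the others, and a width of at most 300 nt in 3 (9.38%) and in 31.9%. The widest were ZNF451 with 2548 nt, ZNF629 with 1770 nt, ZBTB38 with 1620 nt, ZNF766 with 1468 nt and ZNF780B with 1288 nt. All 5 consist of a single block, so each covers one unbroken stretch of the genome. The narrowest were ZBTB20 with 211 nt, ZNF518A with 270 nt and ZKSCAN2 with 271 nt, and these had fold enrichments of 5.68, 6.37 and 8.67.

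Width and fold enrichment went together in the whole list, and the difference between the family and the rest was smaller among peaks of similar width. Of peaks above 300 and up to 600 nt wide, the 14 in zinc finger genes had a median fold enrichment of 10.1 and the 519 others 9.66. Over 600 nt the medians were 31.3 for 15 zinc finger peaks and 24.3 for 319 others, whose quartiles were 12.8 and 44.2. At most 300 nt, the 3 zinc finger peaks had a median of 6.37 and the 392 others 3.23. These width classes were chosen after the values were seen. On chromosome 19 the gap was smaller among wide peaks than over all widths, where the medians were 31.4 and 4.98. Over 600 nt they were 33.2 for 6 zinc finger peaks and 14.6 for 13 others. The 9 zinc finger peaks of that width elsewhere had a median of 31.3, close to 33.2.

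**Figure D3:**
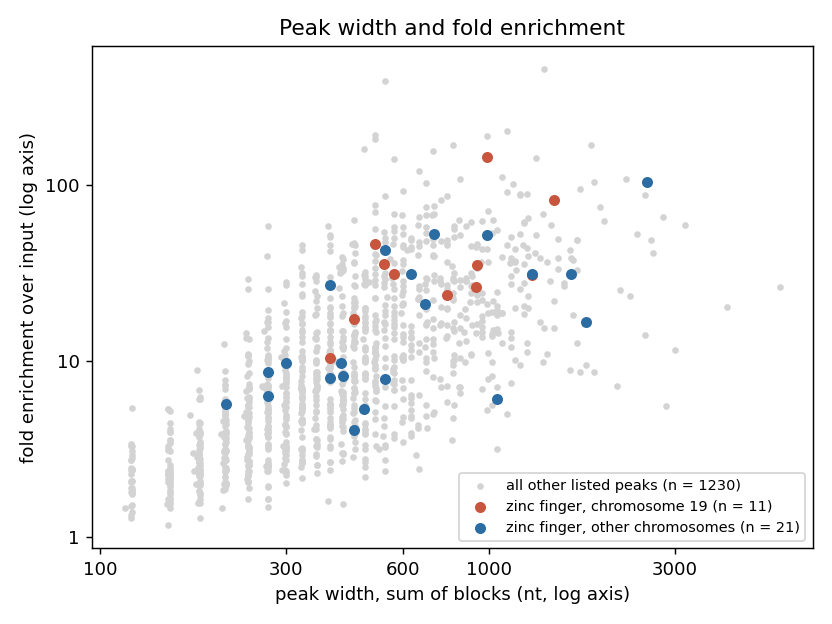
Width of each listed peak as the sum of its blocks (nt, log axis) against fold enrichment over input (log axis); grey points are the 1230 other listed peaks, and coloured points are zinc finger peaks on chromosome 19 (11) and elsewhere (21). Both groups rise with width, and the zinc finger peaks begin at 211 nt and a fold enrichment of 4.05.

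A single block made up 25 of the 32 zinc finger peaks (78.1%, 95% Wilson interval 61.2% to 89.0%) and 63.8% of the others. The single-block peaks of the family had a median width of 629 nt, against 391 nt for the single-block peaks of other genes. The other 7 zinc finger peaks had 2 blocks each. In ZNF516, singled out after its values were seen, a block of 8 nt lies 60941 bases from the main block of 383 nt. ZNF146 likewise joined blocks of 462 and 76 nt across 6839 bases. The blocks were of similar size in ZNF697, with 251 and 227 nt, and in a peak of ZNF841, with 471 and 453 nt.

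The BTB zinc finger genes had 5 peaks in 4 genes, with a median fold enrichment of 7.94. ZBTB38, which binds methylated CpG sites, had 2 peaks in succession on the plus strand of chromosome 3, separated by 149 bases. The first, of 1620 nt from 141445055 to 141446674, had a fold enrichment of 31.5. The second, of 1050 nt from 141446824 to 141447873, had 6.08. Neighbouring stretches of 1 transcript thus stood on either side of the median of the family. ZBTB4, another reader of methylated CpG, had 7.94 over 539 nt. ZBTB47 had 9.81 over 417 nt. ZBTB20, a transcriptional repressor that promotes Toll-like receptor responses in macrophages, had 5.68 over 211 nt.

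The ZSCAN and ZKSCAN prefixes had 1 member and 1 peak each, and these peaks differed in fold enrichment and width. ZSCAN9 had a fold enrichment of 43.0 over 539 nt on chromosome 6, at percentile 90.2 of all listed peaks. ZKSCAN2, which has both a SCAN and a KRAB domain, had 8.67 over 271 nt on chromosome 16, near the middle of the whole list, at percentile 51.

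Some members are known for roles other than DNA binding. ZNF451, a SUMO ligase, had the second largest fold enrichment of the family, 105, in the widest peak, on the plus strand of chromosome 6 from 57100666 to 57103213. ZFP91, a ubiquitin ligase of the noncanonical NF-κB pathway, had 53.1 over 721 nt on chromosome 11 from 58617233 to 58617953. ZNF622, a factor of ribosome large subunit maturation and singled out after its values were seen, had 21.1 over 686 nt on chromosome 5.

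ZNF217, a repressor amplified in breast cancer, had a fold enrichment of 31.3 in a peak of 1204 and 81 nt on chromosome 20. ZNF146, which consists almost only of fingers, had 35.9. ZNF629 had 16.8 in its wide peak on chromosome 16. That value lay between the lower quartile, 12.8, and the median, 24.3, of the other listed peaks over 600 nt. At the low end, ZNF518A had 6.37 and ZNF697 had 5.37. ZNF609, whose gene also gives a circular RNA studied in muscle cells, had 4.05, the lowest of the family and at percentile 26.1 of the whole list. This peak lay at 95.3% of the gene span, 10472 bases before its end, and circular transcripts were not analysed here.

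The authors' p-value for IP over input was listed as 0 for 5 of the 32 zinc finger peaks (15.6%) and for 13.1% of the others. The 5 were the 2 peaks of ZBTB38 and those of ZNF217, ZNF146 and ZFP91. The second ZBTB38 peak, with a fold enrichment of 6.08, is among them, while ZNF100, with 145, had 5e-57. The other 4 had fold enrichments from 31.3 to 53.1, above the median of the family. The largest p-value of the family, 8.5e-09, was that of ZNF697, whose fold enrichment was 5.37.

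Most zinc finger peaks lay in the later part of their gene. Positions were measured along the RefSeq span of the gene, introns included, from its start; coding and untranslated parts were not analysed here. The middle of the peak was in the last 20% of the span for 15 of 32 zinc finger peaks (46.9%, 95% Wilson interval 30.9% to 63.6%), and for 51.4% of the 1060 other peaks that could be placed. A further 10 (31.2%) were in the 20% before it, where 16.2% of the others were. These 10 include all the peaks of ZNF841, which are not independent. The middle was taken over the genomic span, so in a peak of 2 blocks it can lie outside both. It did so for ZNF516, at 61.9% with 60941 bases between its blocks, ZNF146, at 73.6%, and the ZNF841 peaks of 2 blocks. Among peaks of 1 block, 56.0% of zinc finger peaks and 59.0% of the other placed peaks were in the last 20%. When the 3' end of the peak was used in place of its middle, 56.2% of zinc finger peaks were in the last 20%. ZBTB38, ZNF609 and ZBTB20 had all their peaks beyond 95% of the span, as did 2 more members. ZNF629 ended 173 bases before the end of its gene. In the first 20% were 2 zinc finger peaks (6.25%), those of ZNF451 and ZNF622, against 14.4% of the others. The peak of ZNF451 was at 14.7% of a span of 80118 bases.

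**Figure D4:**
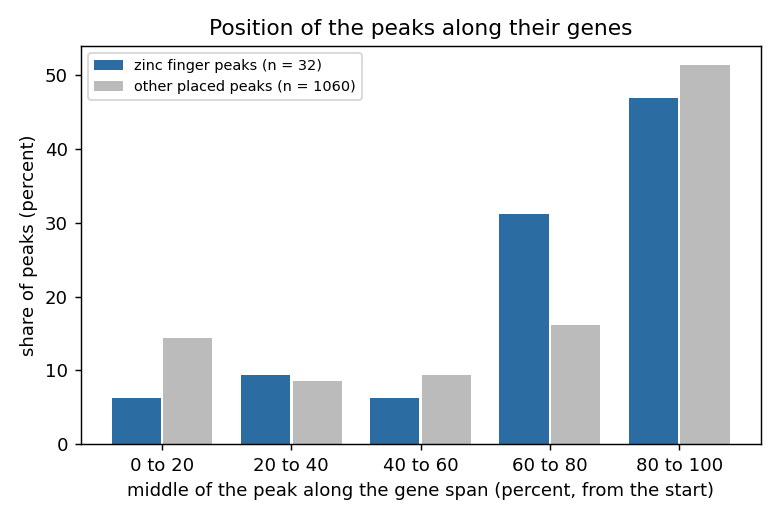
Share of peaks (percent) whose middle falls in each successive 20% of the gene span, from the start of the gene, for the 32 zinc finger peaks (blue) and the 1060 other listed peaks placed on a gene (grey). The last 20% holds 46.9% and 51.4%, and the 20% before it 31.2% and 16.2%. For a peak of several blocks the middle can lie between them.

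The peaks of 2 members, ZNF217 and ZNF622, began within 10 bases of a RefSeq transcription start, while none of the other zinc finger peaks with a RefSeq start in the reference reached one; 30 of the 32 peaks had such an entry. The peak of ZNF622 began at base 9 of the transcript, and that of ZNF217 at base 4 of a transcript that starts within the gene. The 30 bases around each edge are shown because they mark where the enriched stretch begins, from RefSeq on GRCh38.p14, on the minus strand, 5' to 3', with the bases inside the peak in capitals: chr5:16465778-16465807 for ZNF622 and chr20:53593822-53593851 for ZNF217.
ZNF622: tttcctcagtgacaaTCAGGAAGTCGGCGT
ZNF217: ccgctcctcctcattCAAACCCGGCCGGCC
GGAC, the most frequent core of m6A sites, was searched on the transcript strand in the first bases of these peaks, up to base 50 of the transcript. It was absent from the 42 bases of ZNF622 and the 47 bases of ZNF217. Among 35116 RefSeq start windows, 16.6% and 18% hold it in the same stretch. No match says only that these letters are not in this window, and the rest of both peaks was not analysed here.

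Some partners and relatives of the family were listed as well. Of 25 genes for corepressors and chromatin factors that zinc finger repressors recruit, most had no listed peak, TRIM28 and SETDB1 among them. TASOR and CHD3 had a listed peak. No share is given for this list, so these genes are examples only, and 4.61% of all protein-coding genes were listed. TASOR, a subunit of the HUSH silencing complex, had a fold enrichment of 23.0 in 3 blocks. CHD3, a remodeller of the NuRD complex, had 12.1. Of 67 zinc finger genes with other symbols, 5 were listed (7.46%, beside 4.61% of all protein-coding genes), with 7 peaks and a median fold enrichment of 7.99, all in single blocks. ZEB1, a repressor of epithelial genes, had 18. RREB1 had 7.99 and 14.9, HIC1 had 8.18, and HIVEP2 had 1.98 and 3.86. EGR1, an immediate early gene, had 4.10.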

How the data were processed

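MeRIP-seq of ARPE-19 cells gave 8 libraries in 2 groups. The authors deposited 1 table of differential peaks with 18 columns of the form used by exomePeak; the processing notes name CASAVA, fastp 0.19.11, MACS2 2.1.0 and hg38, and the aligner and thresholds are not given in the sources used here. Of the deposited values, the ratio (fold enrichment, IP against input) and the p-value of each peak were used as given by the authors. The log2 fold change, p-value and q-value between the groups are the authors' own comparison and were not used. Positions were made 1-based. Gene IDs were named by the only protein-coding RefSeq gene (GRCh38.p14) on the same strand that holds all their peaks, or, where none did, by the only one of unlisted strand, which applied to 2 members; 950 of 1103 IDs had a name. Genes named were the 10 most and 5 least enriched peaks, the 5 widest, the 3 narrowest, IDs with at least 2 peaks, all genes without the ZNF prefix, peaks with a p-value of 0 and peaks overlapping another ID (0 found). ZNF516, ZNF616 and ZNF622 were added after their values were seen. Members and lists were chosen with earlier results of these data known. The result for 1 gene of the lists is not reported here. No test was run. Naming and positions were tested on simulated data. Calculations were done in Python 3.11.15 (pandas 2.3.3, scipy 1.17.1, numpy 2.4.6), and plots in matplotlib 3.10.9.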

Additional observations from a re-analysis of the deposited data

How the results depend on the processing

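The counts of 32 peaks and 29 gene IDs each moved by 1 when strand was ignored, when genes only touched by a peak were added and when no limit was set on the ID. The peak count also moved by 1 when overlapping peaks were kept once, and the gene ID count did not move without ZFP36 genes, of which none was listed. The share of zinc finger genes with a listed peak was 4.75%, and 4.91% with no limit on the ID, a setting chosen after the values were seen. Over 8 results and 41 alternative values, 31 moved little: counts and medians stayed within 1.5 times, and shares within their 95% interval. The other 10 are given here. With peaks of at most 400 nt, the median fold enrichment was 8.67 for zinc finger peaks and 4.26 for the others. In width classes of at most 300, above 300 up to 600, and over 600 nt, chosen after the values were seen, it was 6.37, 10.1 and 31.3 for zinc finger peaks and 3.23, 9.66 and 24.3 for the others; of these, 31.3 and 9.66 are among the 31 that moved little. Without chromosome 19, also chosen afterwards, the zinc finger median was 9.81, and on chromosome 19 alone that of the others was 4.98. The median width was 853.5 nt as genomic span, which counts introns. The share in the last 10% of the gene was 28.1%, in place of 46.9% in the last 20%. No paired analysis was possible because libraries had been combined before deposit, and leaving out replicates was not run for the same reason.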

Other observations

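Just outside the rule were 2 zinc finger genes. ZNF432, whose gene ID (ENSG00000256087) is above the limit, had a peak of 450 nt in 2 blocks with a fold enrichment of 36.8, on the minus strand of chromosome 19 from 52034999 to 52040371. The member with the highest ID below the limit was ZNF616 (ENSG00000204611), with 23.7. ZNF692, whose peak of 241 nt reaches past the RefSeq gene on chromosome 1, had 10.0.

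Of 21 genes for m6A writers, erasers and readers, 0 had a listed peak. Of 17 RPE marker genes, 2 (11.8%) had 1 each: OTX2, a transcription factor of RPE development, with a fold enrichment of 36.8 over 952 nt, and KRT8, a keratin, with 2.29 over 180 nt. The share listed over all protein-coding genes was 4.61%, and the differences from it were not tested.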
